A study of Mus musculus with 9 samples.

Results

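Subcutaneous Lewis lung carcinoma tumours of mice given digoxin at 0.1 mg/kg were compared with tumours of vehicle-treated mice, 3 libraries against 3. These are 6 of the 9 libraries in the series, and they were taken by their labels alone. Per the labels, LLC cells, an established carcinoma line of C57BL/6 origin, had been placed under the skin of the right flank of male C57BL/6 mice 4 to 5 weeks old. Intraperitoneal dosing began on day 5 after the injection, and vehicle mice received PBS. The other 3 libraries, from mice given 1 mg/kg, entered only the last comparison. All groups carried the same tumour line, and no allele or transgene was named. The comparison asked which transcripts of whole tumour tissue differed at the lower dose.

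Digoxin is a cardiac glycoside. It blocks the Na,K-ATPase, the pump that moves sodium out of cells and potassium in, and pump block is known to lower protein synthesis in cultured cells. Lewis lung carcinoma is a fast-growing, poorly immunogenic tumour in which interferon, made by infiltrating lymphocytes or after nucleic acid sensing, is a main inducer of antigen presentation genes.

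Poly(A) RNA was read as 150 bp pairs, and the deposited unit was FPKM, read counts scaled by gene length and library depth. The table held 35321 genes. Those reaching an FPKM of 1 in 3 or more of the 6 libraries, 13148 in number, were fitted with limma on log2(FPKM + 1). All differences below are on that scale, which understates changes of genes with low values. A gene was called at a Benjamini-Hochberg adjusted p under 0.05, which 6202 genes met (47.2% of those tested). Calls were higher at 0.1 mg/kg for 3275 genes (24.9%) and lower for 2927 (22.3%), and 1200 called genes (9.13%) differed at least 2-fold, 869 higher (6.61%) and 331 lower (2.52%). At an unadjusted p under 0.05 there were 7333 genes (55.8%), and the 3 and 3 values did not overlap for 60.0% of genes (31.1% higher and 29.0% lower). With values rescaled to TPM, which lowered the median difference of all genes by 0.11, 2585 genes were higher and 3954 lower, and with quantile normalisation 2763 and 3647. When 1 library was left out at a time, 3609 (without vehicle sample 3) to 7848 genes (without 0.1 mg/kg sample 2) were called, and 3743 without vehicle sample 2. Of the tested genes, 510 passed the filter only through the treated group and 128 only through vehicle, so that the former could enter a list only with high treated values. The T cell, neutrophil, sensing and one-carbon lists each held 2 genes of the former kind and the metalloproteinase list 3. Any tested gene given below with all 3 vehicle values under 1 FPKM was of the former kind. The count of a gene list is read here against the 24.9% and 22.3% of all tested genes. Where leaving out 1 library moved the larger of a list's counts by more than 1.5 times, the range over those 6 fits follows it. Counts of 6 or fewer in the other direction often moved by more than that and are given without a range. A named gene kept its call in all 6 of these fits unless its highest adjusted p among them is given. Whether each sample was a different mouse is not stated in the labels, and the p-values reflect only the spread among these samples.

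A single treated library stood between the groups. On the first principal component of the 6 libraries (83.0% of the variance), vehicle samples scored −33.9, −39.9 and −41.0, 0.1 mg/kg samples 1 and 3 scored 50.2 and 50.1, and sample 2 scored 14.4. Among 1681 genes that differed at least 2-fold from vehicle in samples 1 and 3 together, the median difference of sample 2 was 0.58 times theirs. Depths in the FPKM denominators were 48649867 to 51810956 with vehicle and 42870997 to 43319883 at 0.1 mg/kg. Genes for mitochondrially encoded proteins took 3.06% to 3.57% of all FPKM with vehicle and 4.75% to 6.21% at 0.1 mg/kg. Rn18s-rs5, an 18S ribosomal RNA sequence that poly(A) selection should remove, was at 787, 919 and 860 FPKM with vehicle and at 1008, 5283 and 4448 FPKM at 0.1 mg/kg. Its difference of 1.75 was called again in 1 of these 6 fits, with a limma adjusted p as high as 0.139 when 0.1 mg/kg sample 3 was dropped. The part of these library differences in the gene differences below was not tested.

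**Figure D1:**
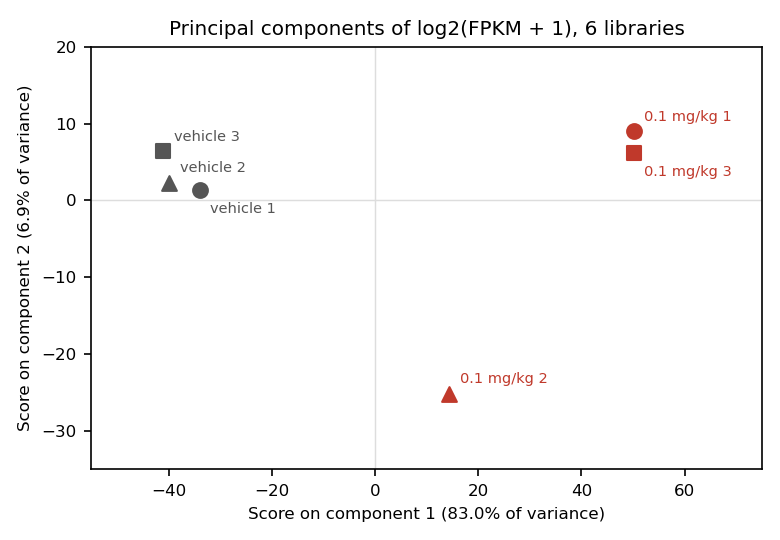
Scores of the 6 libraries on the first 2 principal components of log2(FPKM + 1) over the tested genes, with grey symbols for vehicle and red for 0.1 mg/kg digoxin. The vehicle libraries lie together at −33.9 to −41.0 on component 1, and 0.1 mg/kg sample 2 (14.4) lies apart from samples 1 and 3 (50.2 and 50.1).

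Calls also varied with gene length. With the tested genes in 4 equal bins by length, in the shortest bin (12 to 2115 bp), 32.6% were higher and 11.8% lower, and in the longest (6247 to 41601 bp) 14.6% were higher and 30.2% lower. Lists made mostly of short or long genes are therefore given with the counts obtained after the length trend of each library was removed, a setting chosen after seeing the data, wherever it turned the balance of their calls.

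**Figure D2:**
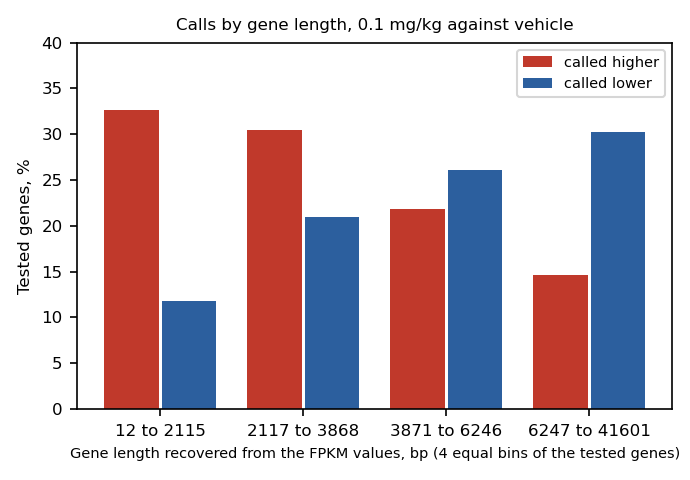
Percentage of tested genes called higher (red) and lower (blue) at 0.1 mg/kg in 4 equal bins of gene length, in bp on the horizontal axis. The share called higher falls from 32.6% in the shortest bin to 14.6% in the longest, while the share called lower goes from 11.8% to 30.2%.

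The labelled tissue was checked against defining markers. Of the epithelial genes, Krt8 and Krt18 were expressed, whereas Krt7 stayed at or below 0.199 FPKM and Epcam at or below 0.149 FPKM in all 6 libraries, and Cdh1, the epithelial cadherin, lay between 0.242 and 0.643 FPKM. The lung lineage markers Sftpc and Scgb1a1 were at or below 0.179 FPKM, and Nkx2-1 was listed at 0 in every library. Epithelial adhesion and lung lineage markers were thus near absent from these tumours with either treatment.

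Type I interferon genes had the largest share called higher (97.4%) of any list of 10 or more tested genes. Interferons bind surface receptors that activate STAT proteins, and STAT2 with IRF9 enters the nucleus and binds the interferon-stimulated response element, spelled here as GAAA, any 2 bases and GAAA. Promoters of 4 of the genes called higher are shown, chosen because each carries this motif. Its part in their rise was not tested. The bases are the 250 before the RefSeq transcription start in GRCm38.p6, 5′ to 3′ on the gene's strand, with matches on either strand in capitals. They lie at chr4:156200819-156201068 (minus strand) for Isg15, chr19:34583279-34583528 (plus) for Ifit3, chr11:58199306-58199555 (plus) for Igtp and chr17:36032702-36032951 (minus) for H2-T23.
Isg15: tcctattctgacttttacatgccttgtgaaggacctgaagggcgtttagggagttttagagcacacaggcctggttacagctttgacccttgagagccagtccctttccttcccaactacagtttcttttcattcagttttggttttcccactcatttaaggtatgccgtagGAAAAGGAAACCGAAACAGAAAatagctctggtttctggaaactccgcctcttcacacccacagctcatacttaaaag
Ifit3: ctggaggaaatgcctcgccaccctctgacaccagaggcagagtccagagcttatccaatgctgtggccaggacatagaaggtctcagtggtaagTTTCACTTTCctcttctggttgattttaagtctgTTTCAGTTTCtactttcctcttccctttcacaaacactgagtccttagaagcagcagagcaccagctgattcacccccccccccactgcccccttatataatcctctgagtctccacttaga
Igtp: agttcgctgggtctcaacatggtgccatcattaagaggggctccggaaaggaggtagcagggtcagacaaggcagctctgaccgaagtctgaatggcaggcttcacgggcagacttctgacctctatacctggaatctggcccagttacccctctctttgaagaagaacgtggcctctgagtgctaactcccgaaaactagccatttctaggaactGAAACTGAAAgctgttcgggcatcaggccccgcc
H2-T23: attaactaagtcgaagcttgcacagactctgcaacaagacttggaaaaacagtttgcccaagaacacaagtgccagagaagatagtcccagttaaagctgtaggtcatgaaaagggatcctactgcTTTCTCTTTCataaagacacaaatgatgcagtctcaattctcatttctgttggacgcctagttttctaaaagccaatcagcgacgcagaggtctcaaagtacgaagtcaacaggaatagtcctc

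Isg15 holds 3 overlapping matches that begin 78, 72 and 66 bases before the start, and Ifit3 holds 2, at 156 and 122 bases. Igtp and H2-T23 hold 1 match each, 34 and 124 bases before it. In windows that also took in the 50 bases after the start, the motif was present in 3.99% of 27025 genes with a RefSeq promoter and in 4.00% of the 9234 tested genes that had one. It was present for 164 of 2352 genes called higher (6.97%) and for 62 of 2099 called lower (2.95%). Of the type I interferon list it marked 12 of 26 genes (46.2%), of the interferon-gamma list 11 of 18 (61.1%) and of the class I presentation list 5 of 19 (26.3%). Cmpk2 and Psmb8 rose without a match in this window. The AP-1 motif TGANTCA was in 8.50% of genes called higher and 5.10% of those called lower, against 6.45% of tested genes. The STAT motif TTCNNNGAA was in 9.65% and 7%, against 8.23%. The E-box CACGTG was in 10.3% and 12.9%, against 11.7%. In the type I, interferon-gamma and class I lists, the STAT motif marked 6 of 26, 8 of 18 and 2 of 19 genes. The AP-1 motif marked 7 of 26, 4 of 18 and 0 of 19, and the E-box 0, 0 and 3. Of 32 ribosome biogenesis genes with a promoter, 9 held the E-box (28.1%), 5 the STAT motif and 0 the AP-1 motif. Motifs were searched on both strands, overlaps included, and a match is a description of letters only.

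Of 38 tested type I interferon genes, 37 were called higher and 1 lower, with a median difference of 1.72 against 0.00 over all tested genes. Isg15, a ubiquitin-like protein attached to other proteins during infection, was at 18.3, 18.6 and 13.8 FPKM with vehicle and at 198, 155 and 224 FPKM at 0.1 mg/kg (log2 difference 3.43, SE 0.17, limma adjusted p = 0.000255). Ifit3, of a family that binds viral RNA, was at 5.68, 6.56 and 5.45 FPKM and at 50.8, 39.5 and 54.4 FPKM. The groups lay far apart for both genes, and sample 2 was the lowest treated library each time. The transcription factor Irf7, which amplifies interferon production, rose from 8.08 ± 1.34 to 90.3 ± 18.7 FPKM (SD, n = 3; difference 3.32), and Stat2 by 1.74. Of the 8 rises with the smallest p, 3 others were Cmpk2 (a mitochondrial nucleotide kinase, 2.07), Oas1g (an oligoadenylate synthetase that senses double-stranded RNA, 2.36) and Apol9b (an apolipoprotein L, 3.40). Parp12, a mono-ADP-ribosyltransferase, was the member called lower (−0.48), a call that 1 of 6 fits kept (limma adjusted p up to 0.0991, without vehicle sample 2).

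Interferon-gamma is made by T and NK cells and acts on GTPases that attack vacuoles and on the class I pathway. Of 25 tested genes of its response, 22 were called higher and 1 lower (median 2.09). Igtp, an immunity-related GTPase, was at 11.6, 10.5 and 12.6 FPKM with vehicle and at 104, 63.6 and 137 FPKM at 0.1 mg/kg. Its neighbour Irgm2 rose by 2.62. The T cell attractant Cxcl9 was at 8.08, 7 and 10.7 FPKM and at 73.1, 29.8 and 90.7 FPKM (difference 2.65, limma adjusted p = 0.00349). The member called lower was Ifngr1, the ligand-binding receptor chain, at 45.5 ± 0.507 and 33.5 ± 0.669 FPKM (−0.43). Ifng itself did not reach 1 FPKM in 3 libraries and was not tested. Its FPKM was 0.222, 0.139 and 0.119 with vehicle and 1.12, 0.593 and 1.21 at 0.1 mg/kg, so the groups did not overlap.

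Of 23 tested class I presentation genes, 18 rose and none fell (median 1.56). B2m, the light chain of every class I molecule, was at 940, 894 and 917 FPKM with vehicle and at 3067, 1951 and 3673 FPKM at 0.1 mg/kg, and H2-K1, a classical heavy chain, at 155, 134 and 152 FPKM and at 910, 488 and 1031 FPKM. With H2-D1 (380 ± 19.8 and 1422 ± 429 FPKM), these were 3 of the 8 called genes that gained most FPKM. Reads of related H2 genes may be shared in counting. Bst2, which tethers virions and is counted here among both type I interferon genes and dendritic markers, rose by 1.70. Of 10 class II genes, 6 rose (2 to 10 over the fits, fewest without vehicle sample 2). The invariant chain Cd74 was at 228, 292 and 418 FPKM with vehicle and at 775, 378 and 939 FPKM at 0.1 mg/kg, and these groups overlapped. Its difference of 1.10 kept its call in 1 of 6 fits (limma adjusted p up to 0.14, without vehicle sample 1). After length removal 2 class II genes were called.

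Of 27 tested sensing and inflammasome genes, 16 rose and 2 fell. Those that rose included the DNA-binding proteins Ifi204 (2.39) and Ifi207 (1.88), the inflammasome adaptor Pycard (0.86), the transcription factor Irf3 (0.72) and the pyroptosis genes Casp1 (2.11), Casp4 (1.59), Gsdmd (1.32) and Il18 (1.73). The 2 that fell were Sting1 and Mavs, adaptors of DNA and RNA sensing. Sting1 was at 36.3, 36.6 and 34.5 FPKM with vehicle and at 26.4, 26.6 and 23.8 FPKM at 0.1 mg/kg (−0.47, limma adjusted p = 0.0037), and Mavs was at 15.5, 15.6 and 15.8 FPKM and at 12.0, 11.8 and 11.4 FPKM (−0.39, limma adjusted p = 0.00435). Neither gene's groups overlapped, and the fit of all 9 libraries ended the call of Mavs.

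**Figure D3:**
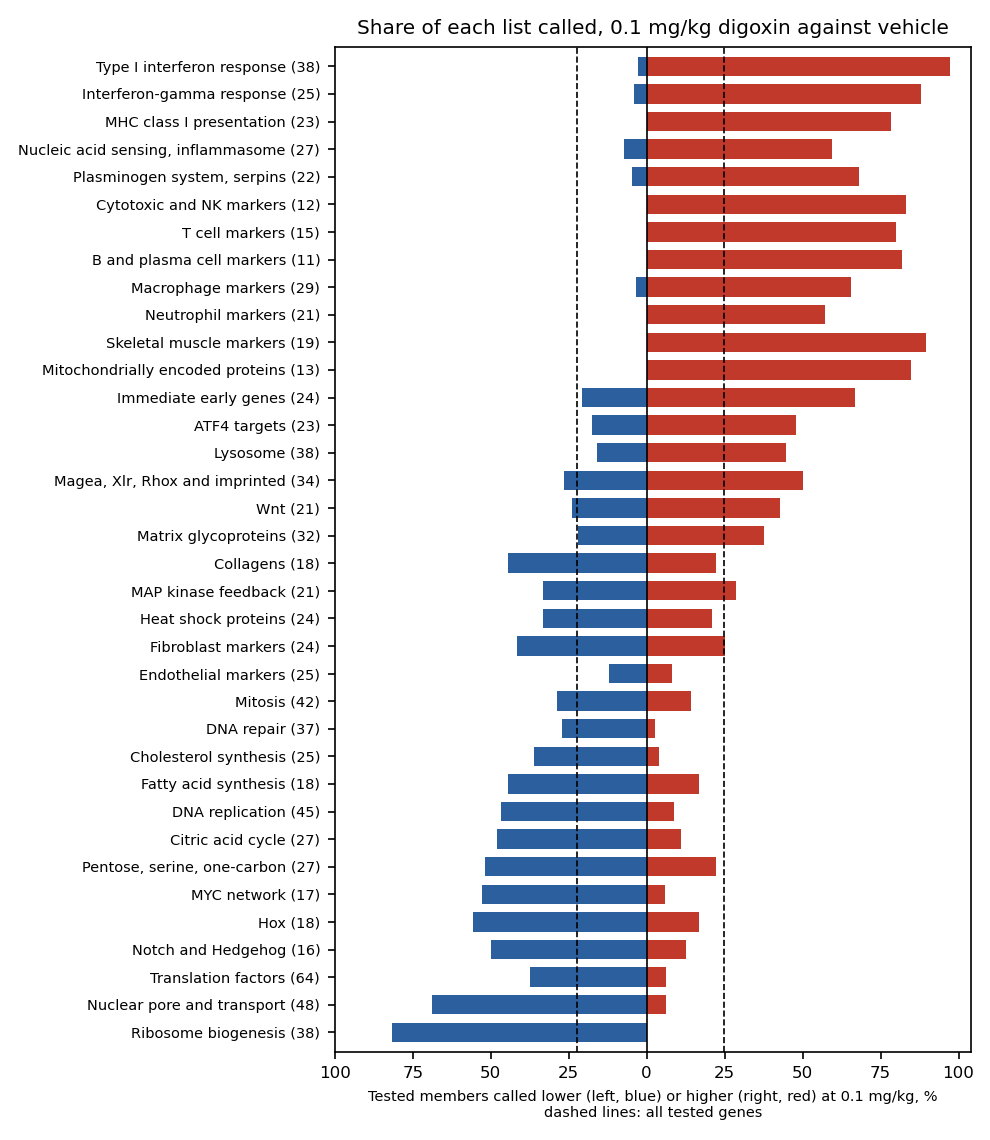
For 36 gene lists, the percentage of tested members called lower (blue, left) or higher (red, right) at 0.1 mg/kg, with the number tested in parentheses and dashed lines at the 22.3% and 24.9% of all tested genes. Type I interferon genes reach 97.4% higher, and ribosome biogenesis genes reach 81.6% lower with none higher.

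Markers of immune cells were mostly higher. In bulk tissue, fewer cells of a type and less RNA of that type per cell cannot be told apart, and the same holds for more. Of 11 tested B and plasma cell markers, 9 were called higher and none lower (median 1.86, or 0.61 over the 22 in the table), but 5 of the 11 passed the filter only through the treated group. Igkc, the kappa light chain constant region, was at 10.9, 8.34 and 11.9 FPKM with vehicle and at 143, 58.9 and 283 FPKM at 0.1 mg/kg (3.58, SE 0.51, limma adjusted p = 0.00313). Cd79a, of the B cell receptor, was at 0.367, 0.411 and 0.609 FPKM and at 10.5, 7 and 8.87 FPKM. The class-switched chains Ighg2c (1.66 ± 0.214 and 14.5 ± 7.92 FPKM) and Igha (3.13 ± 0.882 and 33.3 ± 26.1 FPKM) rose too. The B cell surface marker Ms4a1 stayed at or below 0.320 FPKM in every library.

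T cell markers were called higher in 12 of 15 tested cases, with none lower, and cytotoxic and NK markers in 10 of 12 (9 higher and 1 lower with TPM). Trbc1, a T cell receptor constant chain, was at 3.54, 3.71 and 4.03 FPKM with vehicle and at 18.8, 12.2 and 19.3 FPKM at 0.1 mg/kg. Gzmb, a granule protease, was at 4.98, 6.61 and 5.09 FPKM and at 24.1, 18.6 and 29.9 FPKM, and Prf1, which forms pores, at 1.05, 0.959 and 1.31 FPKM and at 6.38, 5.55 and 6.77 FPKM. The NK receptor Ncr1 did not pass the filter (0.288 to 0.571 and 0.210 to 0.408 FPKM). The coreceptors differed in size: Cd8a was at 1.64, 1.96 and 1.72 FPKM and at 4.52, 2.71 and 4.52 FPKM (0.80, SE 0.17), while Cd4 was at 1.2, 1.69 and 1.2 FPKM and at 1.75, 1.02 and 1.51 FPKM (0.03, limma adjusted p = 0.882), groups that overlapped. Foxp3, of regulatory T cells, lay below 0.3 FPKM throughout and was not tested.

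Checkpoint genes were called higher in 15 of 22 tested cases and lower in 3. Cd274, the PD-L1 gene, was at 3.73, 3.46 and 3.33 FPKM with vehicle and at 27.2, 10.8 and 16.9 FPKM at 0.1 mg/kg (2.01, SE 0.28, limma adjusted p = 0.00303). Its receptor Pdcd1 was at 0.744, 0.248 and 0.589 FPKM and at 5.90, 3.6 and 3.87 FPKM, and Ctla4 at 0.0497 to 0.159 and 0.980 to 1.97 FPKM, too low to be tested. A different B7 family member, Cd276, fell from 30.4 ± 1.11 to 17.0 ± 5.18 FPKM (−0.84).

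Among 29 macrophage markers 19 rose and 1 fell, Cx3cr1, the fractalkine receptor, at 12.9, 16.1 and 19.8 FPKM with vehicle and 1.85, 3.66 and 3.43 FPKM at 0.1 mg/kg (−2.13). The scavenger receptor Marco was at 0.384, 0.125 and 0.231 FPKM and at 10.6, 6.21 and 19.5 FPKM (3.27), and the Fc receptor Fcgr4 at 17.4, 16.1 and 14.3 FPKM and at 116, 57.8 and 124 FPKM (2.50). By contrast Adgre1, the F4/80 antigen, was at 28.3 ± 3.27 and 27.5 ± 6.71 FPKM (−0.07, SE 0.19), with overlapping groups. Of 21 neutrophil markers, 12 rose (6 to 16 over the fits, fewest without vehicle sample 3). Padi4, which citrullinates histones, was at 1.31, 0.943 and 0.679 FPKM and at 15.6, 12.6 and 16.1 FPKM. The abundant granule protein gene S100a9 was at 118, 50.8 and 31.8 FPKM and at 425, 150 and 70.5 FPKM, groups that overlapped. Dendritic markers moved both ways, 5 of 11 higher and 2 lower: Clec10a was 2.01 higher and Clec9a, of cross-presenting cells, fell by 1.92 (7.37 ± 0.547 and 1.40 ± 1.24 FPKM). Of the 5 higher, Bst2 and Irf8 were also counted in the interferon lists. The mast cell proteases Mcpt4 (1.5) and Cma1 (1.19) rose.

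Serpins inhibit proteases, and several protect cells from granule enzymes. Of 22 tested genes of the plasminogen system and serpins, 15 were called higher and 1 lower (median 1.15, or 0.05 over all 55 in the table), with 6 tested only because of their values at 0.1 mg/kg. Serpinb9b, of the granzyme-inhibiting serpin group, was at 2.17, 0.883 and 0.893 FPKM with vehicle and at 24.9, 18.9 and 19.6 FPKM at 0.1 mg/kg (3.29, SE 0.22, limma adjusted p = 0.00049). Serpinb1a and Serpinb6b, which inhibit neutrophil and granule proteases, rose by 1.88 and 2.33. Serpinb2, an inhibitor of plasminogen activation, was at 3.12, 0.655 and 0.378 FPKM and at 27.8, 12.1 and 15.0 FPKM. The serpin that fell was Serpinf1, pigment epithelium-derived factor, at 202, 204 and 192 FPKM and at 76.1, 132 and 65.3 FPKM (−1.19). Of 15 complement genes 12 rose and 1 fell. C3, the central component, rose from 5.99 ± 0.576 to 20.8 ± 6.58 FPKM.

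Inflammatory signalling genes rose less uniformly. Of 19 NF-kB genes, 8 rose and 1 fell (3 to 13 higher over the fits, fewest without vehicle sample 3). The feedback inhibitors Tnip1 (0.77) and Nfkbiz (1.05) rose, and the subunit gene Nfkb1 fell by 0.24, a call that 2 of 6 fits kept (limma adjusted p up to 0.121, without vehicle sample 2). Among 16 tested cytokines, 4 of them tested only through the treated group, 9 rose, with Tnf at 1.29, 1.34 and 1.41 FPKM with vehicle and at 6.75, 3.6 and 6.16 FPKM at 0.1 mg/kg, and Il27, a cytokine of antigen-presenting cells, at 0.447 ± 0.283 and 3.59 ± 0.7 FPKM.

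Several genes of the pump that digoxin blocks differed. Atp1b1, a beta subunit needed for assembly, was at 0.767, 0.921 and 0.658 FPKM with vehicle and at 6.04, 3.56 and 4.19 FPKM at 0.1 mg/kg (1.63, SE 0.17, limma adjusted p = 0.00144). Atp1b1 passed the filter only through the treated group. Fxyd5, which modulates the pump, rose by 0.59. The beta-interacting Nkain1 fell from 13.1 ± 2.39 to 5.66 ± 1.95 FPKM. Another beta subunit, Atp1b3, was at 76.7 ± 0.994 and 92.5 ± 11.2 FPKM (0.26, limma adjusted p = 0.062), and Atp1b2 did not pass the filter.

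Other ion and drug transport genes moved both ways. Of 19 osmotic and ion-regulatory genes, 6 rose (31.6%) and 6 fell (31.6%), against 24.9% and 22.3% of all tested genes. The potassium channel Kcnk5 (2.58 ± 0.151 and 7.01 ± 0.707 FPKM), the volume-regulated anion channel subunit Lrrc8a (0.70) and the salt-responsive kinase Sgk1 (1.17) rose. Slc12a2, a sodium-potassium-chloride importer, fell from 5.04 ± 0.425 to 2.47 ± 0.319 FPKM, and Nfat5, the tonicity-responsive factor, from 13.2 ± 2.07 to 7.04 ± 0.865 FPKM. Of the drug transporters, Slc47a1, an exporter of organic cations, was at 0.802, 0.254 and 0.0456 FPKM with vehicle and at 28.2, 20.7 and 58.4 FPKM at 0.1 mg/kg (4.65, SE 0.38). Slc47a1 was among 3 of the 14 tested drug transporters that passed the filter only through the treated group. The P-glycoprotein genes, whose product exports digoxin, were Abcb1b at 4.71 ± 0.201 and 4.41 ± 0.708 FPKM, with overlapping groups, and Abcb1a at 0.791 ± 0.136 and 1.79 ± 0.534 FPKM. The call of Abcb1a held in 2 of 6 fits (limma adjusted p up to 0.077, without vehicle sample 3).

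Genes that make ribosomes had the largest share of calls lower among the lists (81.6% of tested members). Ribosome biogenesis takes place in the nucleolus, where ribosomal RNA is transcribed, modified and joined to proteins. Of 38 tested factors, 31 were called lower and none higher, with a median of −0.46 (18 to 34 over the fits, fewest without vehicle sample 2). After length removal 34 were lower, and with TPM 32. Ddx21, an RNA helicase of ribosomal RNA processing, was at 59.7, 58.1 and 63 FPKM with vehicle and at 29.9, 35.1 and 29.4 FPKM at 0.1 mg/kg (−0.92, SE 0.09, limma adjusted p = 0.00115). Tsr1, of small-subunit maturation, was at 13.4, 13.3 and 15.4 FPKM and at 4.61, 5.24 and 3.09 FPKM (−1.52). Nolc1, a nucleolar phosphoprotein, fell by 0.88 and Utp18, of the small-subunit processome, by 0.73. Nucleophosmin, Npm1, was not called, at 421, 451 and 446 FPKM and at 386, 428 and 349 FPKM.

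Nuclear pores and transport receptors carry proteins, ribosomal subunits and RNA across the nuclear envelope. Of 48 tested genes, 33 fell and 3 rose (median −0.38). Xpot, which exports transfer RNA, was at 27.2, 28.0 and 31.8 FPKM with vehicle and at 16.8, 17.1 and 15.4 FPKM at 0.1 mg/kg. Xpo5, the exporter of microRNA precursors, was at 22.7 FPKM in each vehicle library and at 11.9, 15.0 and 11.8 FPKM, a fall of 0.78. The importins Kpna2 and Ipo5 fell by 0.63 and 0.47. Rae1, of messenger RNA export, rose from 39.5 ± 1.93 to 51.8 ± 3.79 FPKM. One of the other rises, Ranbp1 (0.31), kept its call in 3 of 6 fits (limma adjusted p up to 0.0772, without vehicle sample 3).

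Of 64 translation factors, 24 fell and 4 rose (12 to 29 lower over the fits, fewest without vehicle sample 3). Eef2, which moves the ribosome along messenger RNA, was at 1465, 1433 and 1591 FPKM with vehicle and at 910, 998 and 805 FPKM at 0.1 mg/kg (−0.73, SE 0.12). Eef1a1, which delivers aminoacyl-tRNA, lost the most FPKM of any called gene, from 5201, 5360 and 5342 to 3506, 4084 and 3330 FPKM. Its call was kept in 2 of 6 fits (limma adjusted p up to 0.0827, without 0.1 mg/kg sample 3). The scaffold Eif4g1 fell by 0.64 and the translational repressor Eif4ebp2 by 0.99. Transfer RNA synthetases split, 8 of 20 lower and 4 higher, with Iars (−0.87) and Lars (−0.88) lower and Cars (0.67) higher.

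Ribosomal proteins did not share one direction. Of 86 tested, 16 were called higher and 11 lower, but 10 and 23 with TPM, 10 and 27 with quantile normalisation and 6 and 32 after length removal. Over the fits that left out 1 library, 7 to 18 were higher, fewest without vehicle sample 2. The count lower ran from 3 without vehicle sample 3 to 24 without 0.1 mg/kg sample 2. Rplp0, Rps6 and Rps4x were among the 8 called genes that lost most FPKM, and each kept its call in 1 of 6 fits. The highest limma adjusted p was 0.102 for Rplp0 and 0.139 for Rps6, both without 0.1 mg/kg sample 3, and 0.0893 for Rps4x, without vehicle sample 3. Ptma, prothymosin alpha, was also among them, at 1052, 1039 and 954 FPKM with vehicle and at 744, 883 and 750 FPKM at 0.1 mg/kg, with a call kept in 1 of 6 fits (limma adjusted p up to 0.111, without 0.1 mg/kg sample 3). Rps6 was at 969, 953 and 924 FPKM with vehicle and at 515, 870 and 554 FPKM at 0.1 mg/kg, sample 2 lying near vehicle. Of the paralogs with low FPKM, Rpl39l was at 0.0940 ± 0.0929 and 3.56 ± 2.26 FPKM and Rps4l at 1.47 ± 0.147 and 3.31 ± 0.533 FPKM, both higher, while Rpl7l1 fell from 45.9 ± 1.49 to 31.9 ± 3.12 FPKM, with the reservation that reads of near-identical copies are hard to place. Rpl39, the common paralog, rose from 132 ± 14.9 to 194 ± 8.34 FPKM.

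**Figure D4:**
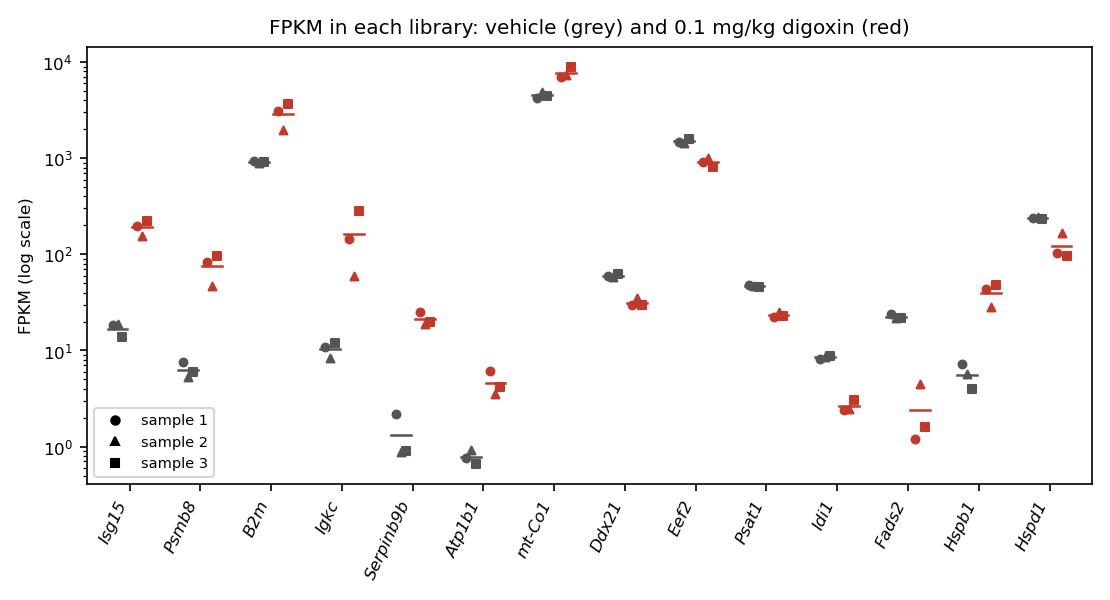
FPKM of 14 genes in each library on a log axis, grey for vehicle and red for 0.1 mg/kg, with a symbol for each sample number and a bar at the group mean. The groups do not overlap for any of the 14 genes, and 0.1 mg/kg sample 2 (triangles) is the treated library nearest to vehicle for Fads2 (4.50 FPKM) and Hspd1 (169 FPKM).

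MYC drives ribosome and nucleotide synthesis genes. Of 17 tested members of its network and targets, 9 fell and 1 rose (3 to 13 lower over the fits, fewest without vehicle sample 2). Myc itself was at 235, 233 and 186 FPKM with vehicle and at 43.7, 197 and 49.1 FPKM at 0.1 mg/kg, so that sample 2 overlapped vehicle and the gene was not called (−1.51, SE 0.54, limma adjusted p = 0.0548). It was called lower with TPM (−1.64), with quantile normalisation (−1.63) and after length removal (−1.67). Cad, the pyrimidine synthesis enzyme, did not overlap, at 34.4, 33.9 and 33.7 FPKM and at 13, 16.7 and 11.1 FPKM (−1.28, limma adjusted p = 0.00145). The MYC antagonist Mxd1 was the member that rose (1.12), a call kept in 3 of 6 fits (limma adjusted p up to 0.082, without vehicle sample 3).

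Replication and repair genes were lower more often than higher. Of 45 DNA replication genes, 21 fell and 4 rose (12 to 22 lower over the fits, fewest without vehicle sample 3). The helicase subunit Mcm5 was at 56.5, 49.5 and 49.1 FPKM with vehicle and at 33.6, 34.1 and 33.1 FPKM at 0.1 mg/kg, and Pola1, the primase-associated polymerase, fell by 0.68. Of 37 repair genes, 10 fell and 1 rose (5 to 12 lower over the fits, fewest without 0.1 mg/kg sample 3), near the background share of 22.3% for falls. Msh6, a mismatch repair protein, was at 24.8, 25.9 and 25.9 FPKM and at 6.78, 13.6 and 7.21 FPKM (−1.44).

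Proliferation markers did not fall together. Mki67 was at 25.3, 29.4 and 31.2 FPKM with vehicle and at 23.3, 28.4 and 28.8 FPKM at 0.1 mg/kg (−0.09, limma adjusted p = 0.541). Of 42 mitosis genes, 12 fell (28.6%) and 6 rose (14.3%), against 22.3% and 24.9% of all tested genes. Over the fits 7 to 14 were lower, fewest without vehicle sample 3. The kinesin Kif20a (−1.23) and the topoisomerase Top2a (−0.62) fell and the securin Pttg1 (1.04) rose. Trp53 was at 61.7, 63.1 and 62.5 FPKM and at 34.0, 53.1 and 38.6 FPKM (−0.59), a call kept in 2 of 6 fits (limma adjusted p up to 0.0665, without 0.1 mg/kg sample 3). Prpf8, the core protein of the spliceosome, fell from 75.7 ± 1.66 to 30.7 ± 6.87 FPKM, and of 100 splicing genes 31 fell and 12 rose (10 to 44 lower over the fits, fewest without vehicle sample 3).

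In the serine and one-carbon pathway, which supplies nucleotide synthesis, 14 of 27 genes fell and 6 rose (median −0.43). Psat1, the serine pathway transaminase, was at 48.5, 47.4 and 45.9 FPKM with vehicle and at 22.2, 25 and 22.7 FPKM at 0.1 mg/kg (−0.99, SE 0.07, limma adjusted p = 0.000567). Mthfd1, the trifunctional folate enzyme, fell by 1.32 and the transketolase Tkt by 0.54, whereas Aldh1l1, which oxidises formyl-folate, rose from 0.513 ± 0.0427 to 3.12 ± 1.15 FPKM. The purine synthesis enzyme Gart was at 22.9, 23.5 and 22.1 FPKM and at 11.4, 10.7 and 9.83 FPKM.

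Sterol and fatty acid synthesis genes were called lower more often than higher. Of 25 cholesterol genes 9 fell and 1 rose. Idi1, the isoprenoid isomerase, was at 8.20, 8.55 and 8.79 FPKM with vehicle and at 2.42, 2.45 and 3.07 FPKM at 0.1 mg/kg (−1.39, SE 0.10, limma adjusted p = 0.000505). Of 18 fatty acid synthesis genes 8 fell and 3 rose. The delta-6 desaturase Fads2 was at 24.1, 21.6 and 21.5 FPKM and at 1.2, 4.50 and 1.59 FPKM, and Fasn, fatty acid synthase, at 56.2, 55.0 and 56.8 FPKM and at 20, 25.1 and 18.3 FPKM (−1.38). Fads3, a relative of Fads2, rose from 9.07 ± 1.26 to 31 ± 9.15 FPKM.

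Of 13 tested protein genes of the mitochondrial genome, 11 rose and none fell (median 0.78, and 8 after length removal). The complex IV gene mt-Co1 was at 4212, 4863 and 4412 FPKM with vehicle and at 6989, 7284 and 8925 FPKM at 0.1 mg/kg (0.78, SE 0.16, limma adjusted p = 0.00936), the largest gain in FPKM of any called gene. The complex I gene mt-Nd1 was at 1168 ± 60.8 and 2330 ± 479 FPKM, and mt-Cytb, also high in all treated libraries, kept its call in 5 of 6 fits (limma adjusted p = 0.05 without vehicle sample 3). Of 89 nuclear respiratory chain genes, 26 rose and 8 fell (16 to 27 higher over the fits, fewest without vehicle sample 2). After length removal 12 rose and 27 fell, so no direction is given for that list. Both kinds were present: the complex III gene Uqcrq rose by 1.22, and Atp5f1b, the catalytic ATP synthase subunit, was at 389, 345 and 376 FPKM and at 181, 226 and 176 FPKM (−0.93).

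The citric acid cycle list had 13 of 27 genes lower and 3 higher (6 to 17 lower over the fits, fewest without vehicle sample 3). Pdha1, which admits pyruvate to the cycle, was at 23.1, 24.8 and 25.4 FPKM with vehicle and at 13.6, 14.7 and 10.6 FPKM at 0.1 mg/kg, and Mdh1, malate dehydrogenase, fell by 0.47. Pcx, which feeds the cycle with oxaloacetate, rose from 1.30 ± 0.139 to 3.09 ± 0.792 FPKM. In iron handling, the storage gene Fth1 was at 476, 405 and 377 FPKM and at 1079, 673 and 682 FPKM (0.92). Tfrc, the transferrin receptor, went the other way, at 19.1, 19.8 and 26.6 FPKM and at 6.18, 13.8 and 10.3 FPKM (−1.09), with its call kept in 5 of 6 fits (limma adjusted p up to 0.0609, without vehicle sample 3).

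Immediate early genes, transcribed within minutes of a stimulus, were called higher in 16 of 24 cases and lower in 5 (9 to 17 higher over the fits, 9 without vehicle sample 2 or 3). Fosb was at 0.688, 0.509 and 0.529 FPKM with vehicle and at 40.9, 18.6 and 23.7 FPKM at 0.1 mg/kg (4.12, SE 0.26, limma adjusted p = 0.000425), and Jund, another AP-1 subunit, rose from 30.4 ± 3.17 to 57.1 ± 1.63 FPKM. The serum response factor Srf (−0.72) and the AP-1 subunit Fosl1 (−1.10) fell. Of 21 MAP kinase feedback genes 6 rose (28.6%) and 7 fell (33.3%), against 24.9% and 22.3% of all tested genes. Of these feedback genes, 4 to 9 were lower over the fits, 4 without vehicle sample 2 or 3. Among them the phosphatases Dusp1 (2.26), Dusp10 (1.61) and Dusp7 (0.82) rose, while Spry1, a Sprouty inhibitor of receptor signalling, was at 12.8, 16.2 and 17.1 FPKM and at 1.48, 5.22 and 1.45 FPKM (−2.28), and Spred2 fell by 1.01. The phosphatases Dusp9 (−0.75) and Dusp3 (−0.41) fell too, and Dusp3 kept its call in 5 of 6 fits (limma adjusted p up to 0.0545, without vehicle sample 3).

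Of 9 tested EGF family genes, 2 rose (22.2%) and 3 fell (33.3%), shares near those of all tested genes. Egfr was at 4.35, 5.63 and 6.16 FPKM with vehicle and at 0.451, 2.23 and 0.402 FPKM at 0.1 mg/kg (−1.76, SE 0.33, limma adjusted p = 0.00647). Its ligands Tgfa (0.618 ± 0.112 and 2.13 ± 0.583 FPKM) and Ereg (3.03 ± 0.508 and 6.68 ± 2.04 FPKM) rose, and Lrig1, which degrades the receptor, fell by 0.56.

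Of 23 ATF4 targets, 11 rose and 4 fell: Chac1, which degrades glutathione, was at 1.62, 1.09 and 1.18 FPKM with vehicle and at 9.09, 6.40 and 9.43 FPKM at 0.1 mg/kg, Ddit3 rose by 1.19 and Nupr1 by 1.27, and Psat1 is the member of this list with the smallest p, lower as given above. Among 24 heat shock genes 5 rose (20.8%) and 8 fell (33.3%). Those that rose included the small heat shock proteins Hspb1, from 7.16, 5.70 and 3.97 to 43.5, 28.6 and 47.8 FPKM (2.63), and Cryab, from 4.36 ± 1.58 to 28.4 ± 11.8 FPKM, and the HSP70 member Hspa2 (0.48), whose call held in 3 of 6 fits (limma adjusted p up to 0.0806, without vehicle sample 3). Among those that fell, Hsp90ab1 was at 1237, 1192 and 1176 FPKM and at 695, 853 and 682 FPKM (−0.70), Hsph1 fell by 0.82, and the mitochondrial Hspd1 was at 240, 248 and 233 FPKM and at 104, 169 and 96.0 FPKM. Of the lysosomal genes 17 of 38 rose and 6 fell (11 to 22 higher over the fits, fewest without vehicle sample 3), with Grn, progranulin, among those that rose (0.94).

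Of 37 keratin genes in the table, 4 were tested. Krt8 was at 4.13, 2.45 and 1.70 FPKM with vehicle and at 92.8, 58.7 and 105 FPKM at 0.1 mg/kg (4.54, SE 0.29, limma adjusted p = 0.000425). Krt18, its filament partner in simple epithelia, was at 63, 43.1 and 60.9 FPKM and at 1.62, 16.8 and 0.932 FPKM (−3.64, SE 0.78, limma adjusted p = 0.0105). Krt19 was 1.80 higher.

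Of 21 tested Wnt genes, 3 of them tested only through the treated group, 9 rose and 5 fell (3 to 5 lower over the fits, fewest without vehicle sample 3). Wnt10a was at 2.80, 2.45 and 0.782 FPKM with vehicle and at 46.5, 26.6 and 39.4 FPKM at 0.1 mg/kg, and Wnt6 at 2.74, 0.857 and 0.405 FPKM and at 38.4, 11.0 and 28.2 FPKM. Wnt7b fell from 29.6, 23.7 and 26.4 FPKM to 1.5, 9.14 and 1.01 FPKM (−2.89). The coreceptor Lrp5 fell by 1.86, and Rnf43, a target gene that removes Frizzled receptors, rose from 0.0970 ± 0.103 to 3.17 ± 1.03 FPKM. Dkk2, a secreted Wnt modulator, was at 75.1, 85.8 and 73.0 FPKM and at 1.25, 60.5 and 1.11 FPKM. Its value in sample 2 was close to vehicle, and its call held in 1 of 6 fits (limma adjusted p up to 0.146, without 0.1 mg/kg sample 3).

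Of 16 tested Notch and Hedgehog genes, 8 fell and 2 rose (5 to 8 lower over the fits, 5 without vehicle sample 2 or 3), with a median of −0.41, or −0.04 over the 23 in the table. Hes1, the main Notch target, was at 8.67, 9.76 and 10.7 FPKM with vehicle and at 1.88, 3.40 and 2.04 FPKM at 0.1 mg/kg (−1.66), and the receptor Notch1 (−0.88) and the Hedgehog transducer Smo (−1.05) fell. Of 28 TGF-beta and BMP genes, 9 fell and 4 rose (3 to 10 lower over the fits, 3 without vehicle sample 2 or 3). Smad3, which carries the TGF-beta signal, was at 15.5, 17.2 and 17.8 FPKM and at 2.33, 7.48 and 2.35 FPKM (−1.97), and the antagonist Grem1 and the stress-induced Gdf15 rose by 1.61 and 2.98. Of 18 Hox genes 10 fell and 3 rose (3 to 15 lower over the fits, fewest without vehicle sample 2 or 3), with Hoxb7 at 4.54, 4.01 and 4.61 FPKM and at 0.650, 2.11 and 0.762 FPKM and Hoxc6 1.30 higher.

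A list of cancer-testis, X-linked reproductive and placental genes, some of them autosomal, had 106 members in the table, of which 34 were tested, 12 of them only through the treated group, and 17 were called higher and 9 lower (3 to 14 lower over the fits). Magea8, a melanoma antigen gene normally silent outside the testis, was at 0.287, 0.121 and 0 FPKM with vehicle and at 20.7, 6.79 and 14 FPKM at 0.1 mg/kg, and Magea10 at 0.226, 0 and 0 FPKM and at 12.4, 3.16 and 12.8 FPKM. Xlr4a rose from 0.337 ± 0.174 to 9.67 ± 4.16 FPKM. Closely related copies such as these share sequence, so reads may be split between them. Esx1, a homeobox gene of the placenta, fell from 8.20, 7.09 and 8.37 FPKM to 0.0705, 0.786 and 0.0698 FPKM (−2.80), and the imprinted H19 fell by 1.29.

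**Figure D5:**
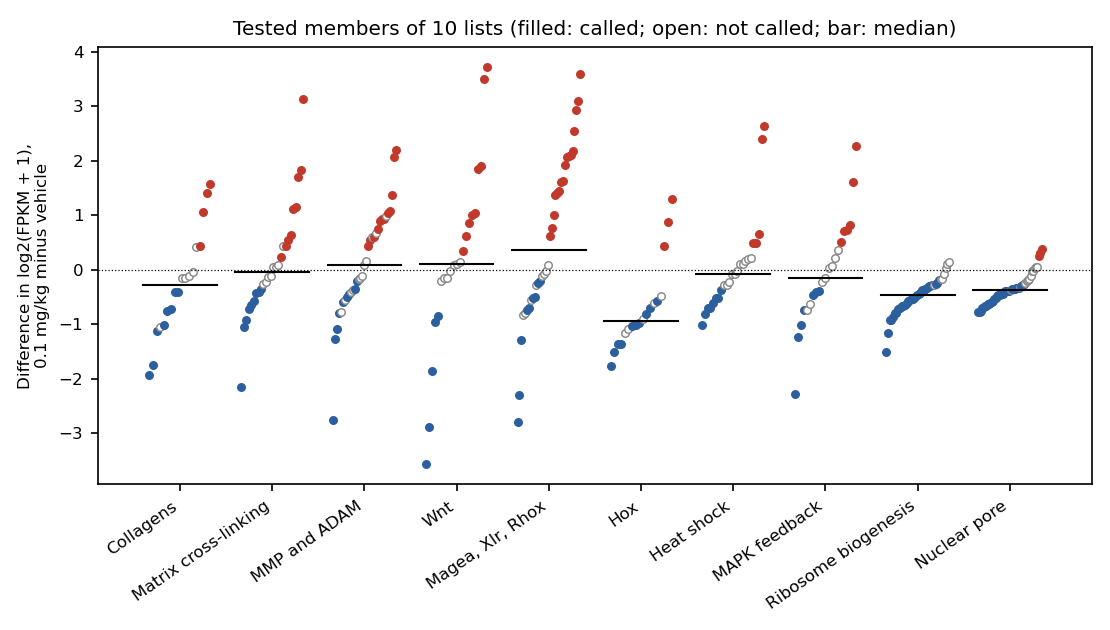
Difference in log2(FPKM + 1) between 0.1 mg/kg and vehicle for every tested member of 10 lists, filled red or blue where called higher or lower, open where not called, with a bar at the list's median. Wnt genes span −3.57 (Dkk2) to 3.72 (Wnt10a), and ribosome biogenesis genes have a median of −0.46 with none called higher.

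Fibrillar collagens form the stiff part of tumour stroma, and lysyl oxidases cross-link them. Of 18 tested collagen genes 8 fell and 4 rose (2 to 5 higher over the fits, 2 without 0.1 mg/kg sample 3 or vehicle sample 2 or 3). Col3a1 was at 586, 684 and 644 FPKM with vehicle and at 132, 384 and 130 FPKM at 0.1 mg/kg (−1.76), one of the 8 largest losses of FPKM, and Col5a2 at 14.9, 11.7 and 16.7 FPKM and at 3.54, 2.87 and 2.62 FPKM (−1.94). Col1a2, by contrast, was at 3.93, 2.90 and 2.32 FPKM and at 10.3, 11.1 and 11.3 FPKM (1.57), and Col5a3 rose by 1.05.

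Of the lysyl oxidase members, Loxl2 was at 17.2, 16.9 and 17.0 FPKM with vehicle and at 4.82, 3.11 and 1.79 FPKM at 0.1 mg/kg (−2.15, SE 0.24), and Loxl4 fell by 0.92. Lox, tested only through the treated group, was at 0.658, 0.427 and 0.509 FPKM and at 2.60, 2.84 and 1.82 FPKM (1.15). Loxl1 was at 3.59, 1.89 and 1.31 FPKM and at 37.3, 13.2 and 36.4 FPKM (3.13, SE 0.43). Among matrix glycoproteins Efemp1, a fibulin, was at 1.43, 0.520 and 0.891 FPKM and at 35.3, 17.4 and 42.6 FPKM, and Fbn1, which builds microfibrils, fell from 18.0 ± 2.17 to 5.27 ± 2 FPKM.

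Of 33 metalloproteinase, ADAM and TIMP genes 12 rose (36.4%) and 9 fell (27.3%). Over the fits 5 to 14 were higher and 4 to 10 lower. Timp1 rose from 81.5, 61 and 52.6 FPKM with vehicle to 139, 126 and 130 FPKM at 0.1 mg/kg, and Timp2 fell from 172, 155 and 171 FPKM to 95.8, 102 and 88.9 FPKM. Mmp14, a membrane collagenase, fell by 0.59. Of 43 cytoskeletal genes, 11 were higher (25.6%) and 10 lower (23.3%), shares near those of all tested genes. Over the fits these counts ran from 5 to 13 and from 6 to 14, fewest without vehicle sample 2. After length removal 6 were higher and 10 lower, and with TPM 8 and 13. Among them Vcl, a focal adhesion protein, was at 14.1, 15.7 and 14.8 FPKM and at 5.72, 5.47 and 4.51 FPKM (−1.35). The actin-binding Tmsb10 was at 432 ± 57.0 and 1203 ± 341 FPKM (1.44).

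Several other genes had differences among the largest or p values among the smallest. Sncg, gamma-synuclein, was at 0.820, 0.469 and 0.272 FPKM with vehicle and at 28.7, 18.1 and 23.9 FPKM at 0.1 mg/kg (4.01, SE 0.20, limma adjusted p = 0.000255). Acap1, a GTPase-activating protein of vesicle recycling, was at 4.12, 2.93 and 2.76 FPKM and at 85.7, 44.0 and 74.5 FPKM. Mst1, macrophage stimulating protein, rose from 0.308 ± 0.147 to 13.2 ± 2.80 FPKM. Gdpd5, a phosphodiesterase gene, was the fall with the smallest p, at 10.3, 9.75 and 9.99 FPKM and at 1.67, 2.13 and 1.93 FPKM (−1.92, SE 0.09). Trpa1, an irritant-gated cation channel, was at 2.79, 2.39 and 3.29 FPKM and at 0.0547, 0.0109 and 0.0433 FPKM. Bnc1, a zinc finger gene of epithelia, was at 11.5, 12.9 and 12.8 FPKM and at 0.0698, 3.88 and 0.128 FPKM, and Nptx1, a secreted pentraxin, at 44.0, 59.1 and 57.3 FPKM and at 0.608, 15.7 and 0.611 FPKM (−3.95). For both Bnc1 and Nptx1, sample 2 lay between the other treated libraries and vehicle. The prolactin family gene Prl2c3, also called proliferin, had the largest rise, at 3.34, 2.54 and 0.937 FPKM with vehicle and at 167, 225 and 44.8 FPKM at 0.1 mg/kg (5.28, SE 0.61), and its near copy Prl2c2 rose by 3.74. Tm9sf5 (4.32), the synaptotagmin Syt8 (4.10) and the cilia gene Cfap58 (2.45) rose, and the palmitoyltransferase gene Zdhhc2 fell by 1.21. Cpe, a prohormone-processing carboxypeptidase, was at 57.5, 60.4 and 61.1 FPKM and at 1.89, 22.7 and 1.96 FPKM (−3.37), and Stra6, the vitamin A receptor, fell by 2.92. Ntn1 (−3.33), Scara3 (−2.98) and Gpr153 (−2.82) kept their calls in 1 of 6 fits each, with limma adjusted p up to 0.0888, 0.111 and 0.12 without 0.1 mg/kg sample 3. In each of these 3 genes sample 2 was nearer to vehicle than to the other treated libraries, as for Ntn1 at 64.7, 71.9 and 64.0 FPKM and at 1.68, 37.3 and 1.97 FPKM.

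Markers of other tissues differed too. Of 19 tested skeletal muscle markers 17 rose, 4 of them tested only through the treated group, and their list summed to 64.2 to 149 FPKM with vehicle and to 421, 240 and 475 FPKM at 0.1 mg/kg. Tnnt3, a fast troponin, was at 7.47, 2.82 and 2.87 FPKM and at 38.2, 21.7 and 44.4 FPKM, and Ckm, muscle creatine kinase, at 3.33, 0.556 and 0.702 FPKM and at 6.46, 1.57 and 4.03 FPKM (1.02, limma adjusted p = 0.135). Myh6, a myosin of heart muscle, was at 0.376, 0.0683 and 0.0230 FPKM and at 7.97, 28.6 and 107 FPKM, while the atrial marker Myl7 was at or near 0 in all 6 libraries. Keratinocyte genes summed to 5.16 to 6.38 FPKM and to 46.7, 29.7 and 69.4 FPKM, with Lgals7 at 2, 0.345 and 0.146 FPKM and at 33.9, 12.6 and 58.1 FPKM, and Krt14 at or below 0.0796 FPKM throughout. Lgals7 made up most of the keratinocyte sum at 0.1 mg/kg in samples 1 and 3, and 4 of the 19 keratinocyte markers were tested. Both sums were higher in every treated library than in any vehicle library, and their part in the other results was not tested.

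Vessel and fibroblast markers gave other pictures. Of 25 endothelial markers 2 rose and 3 fell (7 higher without 0.1 mg/kg sample 2 and 1 lower without sample 1), and Pecam1 was at 9.93 ± 1.68 and 9.46 ± 1.97 FPKM, with overlapping groups. Of 24 fibroblast markers 10 fell and 6 rose (3 to 6 higher over the fits, 3 without vehicle sample 2 or 3), and the list summed to 1657 to 1789 FPKM with vehicle and to 767, 1279 and 685 FPKM at 0.1 mg/kg. Dcn, decorin, was at 139, 134 and 151 FPKM and at 50.5, 87.7 and 36 FPKM (−1.36). Hif1a was at 39.2, 40.9 and 34.6 FPKM and at 32.0, 28.4 and 23.9 FPKM (−0.44), a call kept in 3 of 6 fits (limma adjusted p up to 0.0878, without vehicle sample 2). Its target Vegfa was at 14.6, 14.2 and 13.3 FPKM and at 24.2, 13.7 and 12.3 FPKM, groups that overlapped.

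Among 281 KEGG pathways with 20 to 300 tested members, the highest medians belonged to Allograft rejection (1.12, 18 of 23 tested genes higher), Staphylococcus aureus infection (1.07, 27 of 36), Autoimmune thyroid disease (1.07), Graft-versus-host disease (1.02), Type I diabetes mellitus (1.00) and Complement and coagulation cascades (0.65). The lowest medians, beside that of 1 pathway listed without a name, were those of Terpenoid backbone biosynthesis (−0.33, 11 of 20 lower and none higher), Other types of O-glycan biosynthesis (−0.33, 15 of 32 lower), Glyoxylate and dicarboxylate metabolism (−0.28), Cysteine and methionine metabolism (−0.28), TGF-beta signaling pathway (−0.27, 33 of 72 lower) and Nucleocytoplasmic transport (−0.27, 49 of 99 lower).

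Set directly against the 1 mg/kg group, the lower dose gave no called gene. Of 13124 genes tested with limma, 0 passed (0.00%), 1216 had an unadjusted p under 0.05 (9.27%) and the 3 and 3 values did not overlap for 17.3% (11.1% higher and 6.26% lower at 0.1 mg/kg). A fit of all 9 libraries called 2, Gbp2b and Marcks, and every other setting called 0. Gbp2b, a guanylate-binding GTPase induced by interferon-gamma, had the smallest p, at 3.50, 2.83 and 5.04 FPKM with 0.1 mg/kg and at 0.109, 0.227 and 0.0525 FPKM with 1 mg/kg (2.06 higher at the lower dose, limma adjusted p = 0.291). Vehicle values of Gbp2b were 0.146, 0.0142 and 0.171 FPKM. Marcks, a membrane-bound actin regulator, was at 29.3, 28.1 and 33.5 FPKM and at 17.1, 17.7 and 16.6 FPKM (0.79). The inducible chaperone gene Hspa1b was at 10.2, 5.04 and 4.40 FPKM and at 38.9, 28.6 and 34.7 FPKM (−2.29). Il21r (0.88), a cytokine receptor, and Klra4 (−0.84), an NK receptor of the Ly49 family, completed the 5 smallest p values.

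Several lists nevertheless had medians away from 0 between the doses, described here without a test. Class II genes had a median of 1.41 (0.1 mg/kg minus 1 mg/kg, 9 tested), B and plasma cell markers 0.92, T cell markers 0.91, cytotoxic markers 0.89 and interferon-gamma genes 0.62, while immediate early genes had −0.78, hypoxia genes −0.69 and neutrophil markers −0.63. Of these, 3 of 16 tested T cell and 2 of 12 B and plasma cell markers passed the filter only through 0.1 mg/kg. Over all members in the table, medians were 1.0 for class II, 0.55 for B and plasma cell, 0.64 for T cell and 0.64 for cytotoxic genes. They were 0.62 for interferon-gamma, −0.72 for immediate early, −0.69 for hypoxia and −0.61 for neutrophil genes. Cxcl9 was at 73.1, 29.8 and 90.7 FPKM with 0.1 mg/kg and at 4.05, 25.3 and 9.10 FPKM with 1 mg/kg (limma adjusted p = 0.440). Fosb was at 40.9, 18.6 and 23.7 FPKM and at 188, 81.7 and 104 FPKM (limma adjusted p = 0.393). For both genes every value of the one dose lay above every value of the other, and neither passed the threshold.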

How the data were processed

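Poly(A) RNA of the tumours was sequenced as 150 bp pairs, and the submitters' processing notes name fastp 0.22.0, HISAT2 2.2.1 and the build GRCh38, a human build, although the gene symbols of the table are those of mouse. For the read counter and the annotation, nothing was given in the sources used here. The authors deposited 1 table of FPKM values. Whole reads were recovered from the steps of the FPKM values (99.94% of tested genes within 0.03 of a whole number in all 9 libraries), which gave each library's depth and each gene's length. Precision is limited by 3 libraries a group.

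Groups came from the labels. Genes with an FPKM of at least 1 in at least 3 of the 6 libraries compared were tested on log2(FPKM + 1) with limma 3.58.1 in R 4.3.3 (trended empirical Bayes, Benjamini-Hochberg adjustment, threshold 0.05) on those libraries alone. The code was tested on simulated data. The gene lists, the comparison and the motifs were chosen with earlier results of these data known. Genes named are the 12 largest rises and falls without overlap, the 8 largest gains and losses of FPKM, the 8 smallest p values each way, up to 4 members of each described list by p, a fixed set of immune, pump and tumour genes, and, between doses, the 5 smallest p values. Other names were chosen after their values were seen. Alternatives were pseudocounts of 0.1 and 0.01, other filters, equal medians, quantile normalisation, TPM, a fit of all 9 libraries, other empirical Bayes settings, a replicate block and leaving out each library. Voom on recovered reads and removal of the length trend were added after seeing the data. Promoters are from RefSeq, GRCm38.p6, matched by symbol. Some genes that the rule names are not reported here.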

Additional observations from a re-analysis of the deposited data

How the results depend on the processing

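Of 211 named genes called against vehicle, 188 kept their call in all 6 fits that left out 1 library. In the 13 other alternatives, 183 kept it wherever they were tested. The minimum mean FPKM of 5 tested only 187 of 225 named genes, and a gene absent there was not counted as lost. The count of called genes, 6202, ran from 3609 (without vehicle sample 3) through 3743 (without vehicle sample 2) to 7848 (without 0.1 mg/kg sample 2), and 1200 were also at least 2-fold. Calls were split 52.8% higher in the count given first and 39.5% with TPM, 43.1% with quantile normalisation, 43.7% after length removal, 46.9% with equal medians and 60.3% without a filter, where 32048 genes were tested. Voom on recovered reads called 6350 genes, and a minimum mean FPKM of 5 left 8201 genes with 4227 called. Between the doses 2 genes were called by the fit of all 9 libraries. That fit ended the calls of Mavs, Ighg2c, Mcpt4, Cma1 and Lox, length removal that of Rae1, and the test without a filter that of mt-Co1. The cause was not tested.

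Samples of different groups share replicate numbers, but the labels do not say that a number marks a shared litter, batch or day. For that reason the numbers were not taken as pairs. Same-numbered vehicle and 0.1 mg/kg samples had correlations of their deviations of 0.201, 0.142 and 0.096. Samples of unlike number had correlations of −0.136 to 0.031, so each vehicle sample correlated best with its own number. Whether the numbers mark pairs was not tested. With a replicate block 5639 genes were called, and 0 between the doses.

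Differences from vehicle that were near 0 changed sign. Cd4 was at −0.01 with equal medians and after length removal, −0.17 with quantile normalisation and −0.05 with TPM. Mki67 was at 0.03 after length removal. Over the 6 fits against vehicle that left out 1 library, Cd4 ranged from −0.07 to 0.16, Mki67 from −0.17 to 0.01 and Adgre1 from −0.18 to 0.15. Pecam1 ranged from −0.18 to 0.09, Vegfa from −0.10 to 0.36 and Hspa1b from −0.36 to 0.17. The range of Hspa1b is for its difference from vehicle, not for that between the doses given above.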
